A study of Mus musculus with 12 samples.

Results

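The striatum of R6/2 mice that had received PLX3397 was compared with the striatum of wild-type mice that had received vehicle, which asks what remained different from untreated wild type once microglia had been depleted. The comparison rests on 6 of the 12 RNA-seq libraries of the series, 3 from each group, picked by the genotype and treatment on their labels, and on all 15397 genes of the deposited table. The R6/2 PLX3397 mice carried the R6/2 transgene and ate chow with 275 ppm PLX3397, and the wild-type vehicle mice lacked the transgene and received vehicle. R6/2 mice on vehicle and wild-type mice on PLX3397 (n = 3 each) entered the same fit, and their values are set beside the comparison for some genes and lists. All mice were C57BL/6 and were treated from 7 to 11 weeks of age. Each microdissected striatal sample was taken here as 1 mouse. Genotype and drug both differ between the R6/2 PLX3397 and the wild-type vehicle mice, so this difference alone cannot tell them apart.

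R6/2 mice express a fragment of mutant human huntingtin from a transgene and are a fast model of Huntington's disease; the transgene itself was not analysed here. Most neurons of the striatum are medium spiny projection neurons, which release GABA with enkephalin or with dynorphin and substance P, and their identity genes are known to fall early in this disease. PLX3397 blocks the receptor kinase Csf1r, on whose signal microglia, the resident macrophages of the brain, depend to survive.

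Values are log2 CPM, the log2 of read counts scaled to a common library size. Differences are R6/2 PLX3397 minus wild-type vehicle on that log2 scale, with their SE, and a gene was called at a limma adjusted p (Benjamini-Hochberg over the 15397 genes) under 0.05. Each library held 18902120 to 24293208 reads in genes, and replicates of the 2 groups correlated at r = 0.962 to 0.983 across genes. Libraries differed in the level of genes that mark neighbouring regions, which the labels do not explain. Slc17a7, which loads glutamate into vesicles in cortex, read 2.79, 3.06 and 9.0 log2 CPM in libraries 1 to 3 of R6/2 PLX3397, against 8.34, 7.30 and 8.74 in wild-type vehicle libraries 1 to 3. The mean of 30 cortical neuron genes was 3.11, 3.24 and 5.20 log2 CPM in R6/2 PLX3397, against 4.92, 4.23 and 5.11 in wild-type vehicle. Of the other libraries, wild-type PLX3397 library 1 was also low at 3.56. R6/2 PLX3397 libraries 1 and 2 stood apart within the comparison, and counts are also given without them. Each library's deviation from the gene means over all 12 libraries also followed transcript GC content, by an amount that varied between libraries. Spearman's rho across genes was -0.28, -0.51 and -0.18 in R6/2 PLX3397, against -0.36, -0.34 and 0.04 in wild-type vehicle.

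The treated R6/2 striatum differed from the untreated wild-type one in both directions. Microglial RNA was nearly absent, genes of medium spiny neurons and immediate early genes were lower, and interferon-stimulated genes were higher. Of 15397 genes, 702 were called (4.56%), 143 of them higher (0.929%) and 559 lower (3.63%). R6/2 mice on vehicle, set against the same wild-type libraries, had 95 genes higher (0.617%) and 230 lower (1.49%). In the direct comparison of R6/2 mice on PLX3397 with R6/2 mice on vehicle, 9 genes were higher (0.0585%) and 160 lower (1.04%). Wild-type mice on PLX3397 had 913 genes higher (5.93%) and 1278 lower (8.30%) than wild-type mice on vehicle. The calls depended on single libraries: 294 genes were called without R6/2 PLX3397 library 1, 388 without its library 2, and 246 each when wild-type vehicle library 1 or library 2 was dropped. Without both R6/2 PLX3397 libraries that were low in cortical genes, 91 genes were called, 5 higher and 86 lower.

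**Figure D1:**
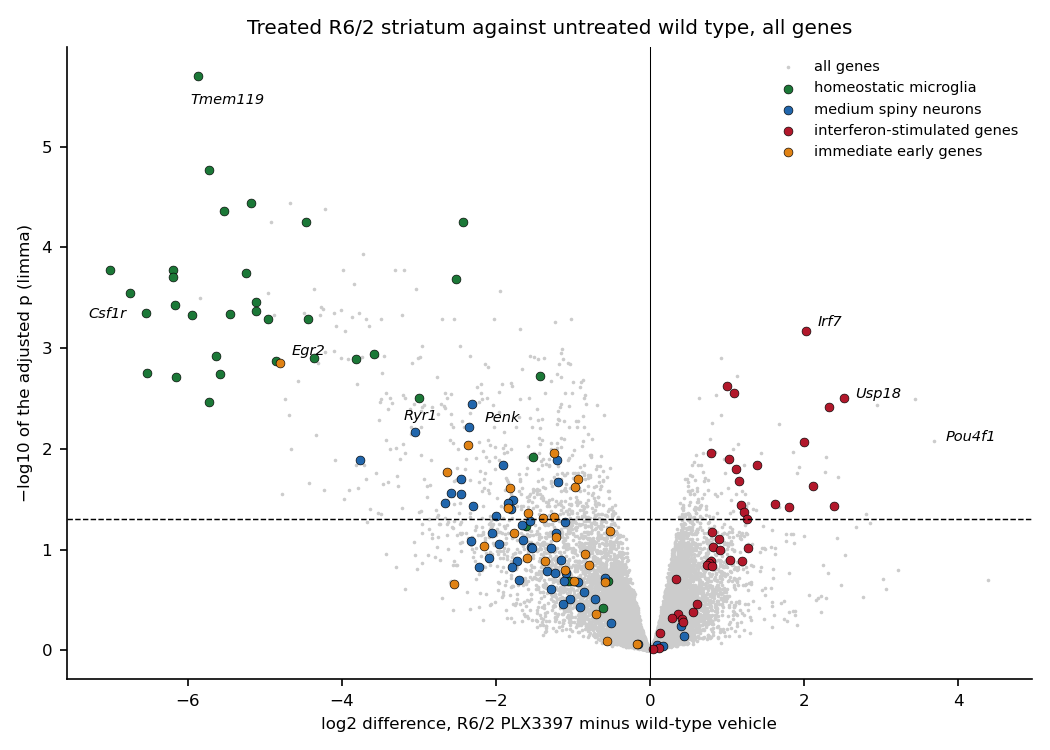
Each point is a gene, placed by its log2 difference (R6/2 PLX3397 minus wild-type vehicle, n = 3 each) and the −log10 of its limma adjusted p; the dashed line is the threshold of 0.05. Most homeostatic microglial genes lie far left, interferon-stimulated genes lie right of 0, and medium spiny neuron and immediate early genes lie mostly left of 0.

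Microglial genes fell to a small part of their wild-type level. Csf1r, the drug's target, had 12, 18 and 59 reads in R6/2 PLX3397 libraries 1 to 3, against 1777, 2367 and 2314 in wild-type vehicle. That is -0.79, -0.24 and 1.39 log2 CPM in R6/2 PLX3397, against 6.62, 6.74 and 6.63 in wild-type vehicle, with no overlap. Csf1r was 93.2-fold lower (-6.54 ± 0.68, adjusted p = 0.00045), which left 1.07%. Tmem119, a membrane protein specific to microglia, stood at -1.77, -1.54 and -1.07 log2 CPM in R6/2 PLX3397, against 4.50, 4.47 and 4.26 in wild-type vehicle (-5.87 ± 0.26, adjusted p = 1.98e-06). It had the smallest adjusted p among the homeostatic microglial genes. The fractalkine receptor Cx3cr1 fell by 7.00 ± 0.60 (adjusted p = 0.000167), P2ry12, which senses purines, by 5.53 ± 0.39 (adjusted p = 4.35e-05) and the lipid-sensing receptor Trem2 by 6.16 ± 0.61 (adjusted p = 0.00037). All 5 kept their calls in each of 17 alternative settings, such as leaving out each library.

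Not every gene of the microglial list disappeared. Of 36 homeostatic microglial genes, 32 fell, where 3.63% of all genes did. The list median was -5.15 on the log2 scale, against 0.01 for all genes tested. The members not called were Aif1 (-1.61, adjusted p = 0.058), Entpd1 (-1.05, adjusted p = 0.207), Mertk (-0.61, adjusted p = 0.381) and Sall1 (-0.54, adjusted p = 0.206), of which Aif1 was called without R6/2 PLX3397 library 3 (adjusted p = 0.0383). Without both R6/2 PLX3397 libraries 1 and 2, 23 of the 36 fell. In R6/2 mice on vehicle no member of the list was called against wild-type vehicle by limma (3 at an unadjusted p under 0.05). In wild-type mice on PLX3397, 32 of the 36 were lower than in wild-type vehicle. Fewer microglia and less RNA per microglial cell cannot be told apart in tissue RNA, and the same holds for every other cell type below.

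Other myeloid genes were lower too. Mrc1, the mannose receptor of the macrophages at brain borders, had 1, 2 and 2 reads in R6/2 PLX3397, against 35, 62 and 49 in wild-type vehicle (-3.87 ± 0.41, adjusted p = 0.000488). Of 5 border macrophage genes 3 fell, where 3.63% of all genes did. The count was 2 by limma-voom and 1 without R6/2 PLX3397 library 1 or any 1 of the wild-type vehicle libraries. Complement had 6 of 18 genes lower, where 3.63% of all genes were. They were the C1q chains C1qa, C1qb and C1qc, the receptor C3ar1 and the integrins Itgam and Itgb2, all of them made by microglia. Of these, C1qa, C1qb, C1qc and Itgam are also on the homeostatic microglial list and were counted there. C1qa had 4, 6 and 15 reads in R6/2 PLX3397, against 695, 840 and 809 in wild-type vehicle (-6.53 ± 0.86, adjusted p = 0.00178, and 0.118 without both R6/2 PLX3397 libraries 1 and 2). Among 19 genes of activated microglia, 4 fell, where 3.63% of all genes did. They included the chemokine Ccl6 (-3.95 ± 0.45, adjusted p = 0.000682) and the lysosomal protein Cd68 (-2.59 ± 0.42, adjusted p = 0.0057). Apoe, the lipid carrier that astrocytes make too, averaged 10.2 ± 0.21 log2 CPM in R6/2 PLX3397 and 10.7 ± 0.16 in wild-type vehicle (SD, n = 3 each; adjusted p = 0.373). Neither ligand of Csf1r was called, with Csf1 differing by 0.04 ± 0.20 (adjusted p = 0.945) and Il34 by -0.21 ± 0.19 (adjusted p = 0.587).

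**Figure D2:**
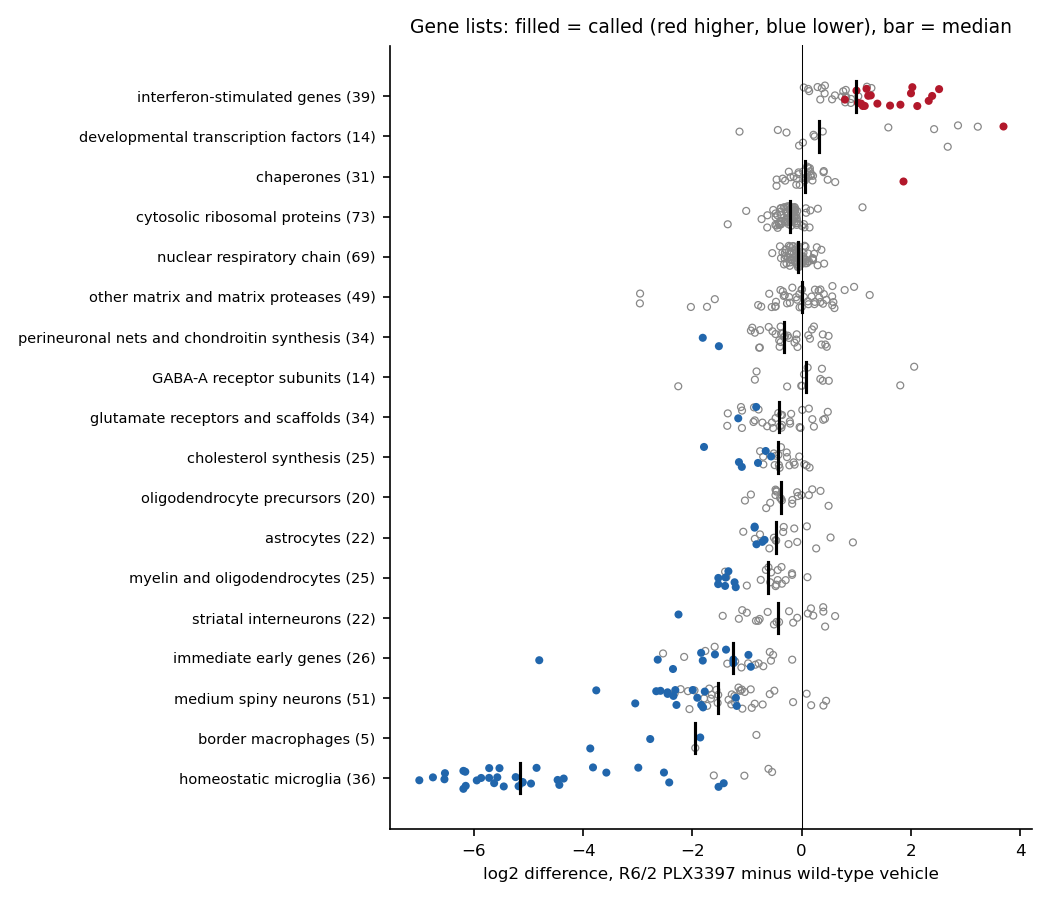
Each point is a measured gene of a list (number in brackets), placed by its log2 difference, R6/2 PLX3397 minus wild-type vehicle; filled points are called (red higher, blue lower), open ones are not, and the black bar is the list median. Interferon-stimulated genes have called members only on the right, while microglial, medium spiny neuron and immediate early genes have called members only on the left.

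Genes of medium spiny neurons were low in R6/2 mice after depletion. Of 51 measured genes 16 fell, where 3.63% of all genes did, with a median of -1.54. Of the same 51, 29 had all 3 R6/2 PLX3397 libraries below all 3 wild-type vehicle libraries, which 16.0% of all genes did. Against the same wild-type libraries, R6/2 mice on vehicle also had 16 of these 51 genes lower, with a median of -1.76 (10 lower by limma-voom). In the direct comparison of R6/2 PLX3397 with R6/2 vehicle, 1 of the 51 was called, Isl1, which was higher (list median 0.34). With the mean of the cortical genes as a covariate 8 fell, while the list median was -1.69. A fit of the 6 libraries of the comparison alone called 7 lower, with the median unchanged at -1.54. The count was 3 without R6/2 PLX3397 library 1, wild-type vehicle library 1 or wild-type vehicle library 2, and 2 without both R6/2 PLX3397 libraries 1 and 2.

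Penk, a protein-coding gene on chromosome 4 (GRCm38, 4133536 to 4138815; NCBI gene 18619), encodes the enkephalin precursor that marks the indirect pathway. It stood at 6.90, 8.12 and 7.44 log2 CPM in R6/2 PLX3397, against 10.07, 10.15 and 9.29 in wild-type vehicle. R6/2 vehicle libraries had 6.66, 6.10 and 7.48, so both R6/2 groups lay below every wild-type vehicle library. Penk was 5.09-fold lower (-2.35 ± 0.38, adjusted p = 0.00612; 0.0912 without both R6/2 PLX3397 libraries 1 and 2), and its difference from R6/2 vehicle was 0.75 ± 0.38 (adjusted p = 0.428). Ryr1, a calcium release channel of the endoplasmic reticulum (protein coding; chromosome 7 of GRCm38, 29003340 to 29125179; NCBI gene 20190), stood at 3.47, 3.67 and 2.23 log2 CPM in R6/2 PLX3397, against 6.42, 6.56 and 5.52 in wild-type vehicle. It fell by 3.05 ± 0.51 (adjusted p = 0.00679) and kept its call in all 17 alternatives. Itpka, a kinase of inositol trisphosphate that cortical neurons also use, fell by 2.31 ± 0.35 (adjusted p = 0.00356) and kept its call in the same 17.

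Other called genes of this group carry dopamine and adenosine signals or shape firing. Scn4b, a sodium channel subunit of striatal neurons, had 724, 2835 and 2152 reads in R6/2 PLX3397, against 18570, 37299 and 10974 in wild-type vehicle, with no overlap. This 13.6-fold difference (-3.76 ± 0.70, adjusted p = 0.013) compares with -3.87 ± 0.70 in R6/2 mice on vehicle. Its call ended without R6/2 PLX3397 library 1 (adjusted p = 0.0585), wild-type vehicle library 1 (0.0612) or 2 (0.0704), or both R6/2 PLX3397 libraries 1 and 2 (0.246). Ptpn5, the striatum-enriched phosphatase STEP, fell by 1.20 ± 0.23 (adjusted p = 0.013) and Rasgrp2, an activator of the GTPase Rap1, by 1.91 ± 0.36 (adjusted p = 0.0143). Both calls ended under the same omissions, at adjusted p of 0.0646 and 0.0611 without R6/2 PLX3397 library 1, 0.0538 and 0.0689 without wild-type vehicle library 1, and 0.0696 and 0.0715 without library 2 of that group. Adora2a, the adenosine receptor of indirect-pathway neurons, stood at 3.76, 6.14 and 5.90 log2 CPM in R6/2 PLX3397, against 8.26, 8.50 and 7.03 in wild-type vehicle (-2.66 ± 0.61, adjusted p = 0.0347; 0.0915, 0.14 and 0.149 under these 3 omissions). Ppp1r1b, whose product DARPP-32 relays dopamine signals by blocking a phosphatase, fell by 2.46 ± 0.54 (adjusted p = 0.028; 0.0857, 0.118 and 0.13 under them).

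Several well known striatal genes did not pass the threshold, though the libraries of Drd1, Drd2 and Pdyn did not overlap. The dopamine receptor Drd1 stood at 4.41, 6.30 and 5.65 log2 CPM in R6/2 PLX3397, against 7.75, 8.01 and 6.48 in wild-type vehicle (-1.96 ± 0.60, adjusted p = 0.0886). Drd2, the receptor of indirect-pathway neurons, stood at 3.70, 5.63 and 4.93 in R6/2 PLX3397, against 6.99, 7.43 and 5.99 in wild-type vehicle (-2.05 ± 0.57, adjusted p = 0.069). The phosphodiesterase Pde10a differed by -2.32 ± 0.69 (adjusted p = 0.0826), and was called without wild-type vehicle library 3 (0.0402). Pdyn, from which direct-pathway neurons make dynorphin, stood at 3.85, 4.75 and 3.16 log2 CPM in R6/2 PLX3397 and at 2.75, 2.29 and 3.54 in R6/2 vehicle, against 5.42, 5.15 and 5.05 in wild-type vehicle. Its difference from wild-type vehicle was -1.29 ± 0.40 (adjusted p = 0.0961; 0.0416 without R6/2 PLX3397 library 2). In R6/2 mice on vehicle the difference was -2.34 ± 0.40 (adjusted p = 0.0283), and between the 2 R6/2 groups it was 1.06 ± 0.40 (adjusted p = 0.322).

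Isl1 went another way. This transcription factor of direct-pathway and cholinergic neurons stood at 4.36, 4.81 and 3.88 log2 CPM in R6/2 PLX3397 and at 2.76, 2.81 and 3.42 in R6/2 vehicle, against 4.37, 4.19 and 4.21 in wild-type vehicle. R6/2 PLX3397 mice exceeded R6/2 vehicle mice by 1.35 ± 0.24 (adjusted p = 0.0177), and their difference from wild-type vehicle was 0.09 ± 0.24 (adjusted p = 0.877). R6/2 PLX3397 library 3 was the nearest to R6/2 vehicle, and libraries 1 and 2 were the ones low in cortical genes. Calls between the R6/2 groups, here and below, are given without omission of libraries. The limit on septum and pallidum given below for cholinergic genes holds for Isl1 too.

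**Figure D3:**
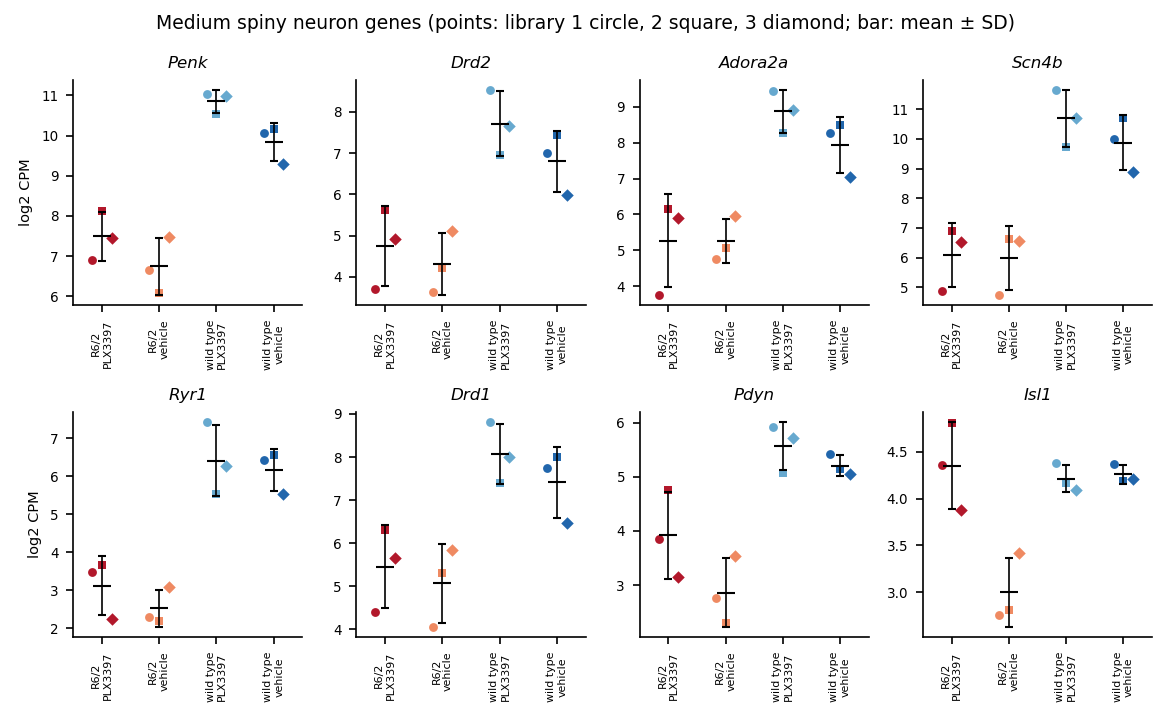
Level in log2 CPM of 8 medium spiny neuron genes in each library, by group; circles, squares and diamonds are libraries 1, 2 and 3, and bars are the mean ± SD (n = 3). Both R6/2 groups lie below both wild-type groups for Penk, Scn4b and Ryr1, while Isl1 is low in R6/2 vehicle alone.

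Interferon-stimulated genes were higher in treated R6/2 mice, whose microglial RNA was nearly absent. These genes respond to type I interferon through a set of transcription factors that includes Irf9, and many of their products act against viruses. Of 39 measured members 18 rose, where 0.929% of all genes did, and all 39 had a positive difference. Of the same 39, 34 had all 3 R6/2 PLX3397 libraries above all 3 wild-type vehicle libraries, which 16.0% of all genes did. The list median was 1.00 in R6/2 PLX3397 mice and 1.09 in R6/2 vehicle mice, each against the same wild-type vehicle libraries, and R6/2 vehicle mice had 13 of the 39 higher. Between the 2 R6/2 groups none of the 39 was called by limma or limma-voom (3 at an unadjusted p under 0.05), with a median of 0.02. The count of rises was 11 with the cortical covariate, 23 with the GC and length trend removed and 1 without both R6/2 PLX3397 libraries 1 and 2. Dropping R6/2 PLX3397 library 1 or 2 left 6 or 8 rises, and dropping wild-type vehicle library 1 or 2 left 6 or 11.

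Irf7, the factor that amplifies the interferon response, was the member with the smallest p (protein coding; chromosome 7 of GRCm38, 141263183 to 141266499; NCBI gene 54123). It stood at 2.69, 3.04 and 3.07 log2 CPM in R6/2 PLX3397 and at 3.73, 3.30 and 3.35 in R6/2 vehicle, against 0.61, 1.26 and 0.85 in wild-type vehicle. The lowest R6/2 PLX3397 library lay above the highest wild-type vehicle library. Irf7 rose by 2.03 ± 0.23, or 4.08-fold (adjusted p = 0.000682), and was called in all 17 alternatives. Usp18, a protease that strips Isg15 from the proteins it tags, had 152, 116 and 83 reads in R6/2 PLX3397, against 10, 20 and 20 in wild-type vehicle (2.52 ± 0.37, adjusted p = 0.00314). The sensors of viral RNA were also represented, with Oasl2 at 2.33 ± 0.35 (adjusted p = 0.00382) and Ifit1 at 2.00 ± 0.35 (adjusted p = 0.00847). The calls of Usp18, Oasl2 and Ifit1 held without any 1 of the 6 libraries and ended without both R6/2 PLX3397 libraries 1 and 2 (adjusted p = 0.188, 0.224 and 0.378).

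Promoters are shown because a short motif of this response could be looked for in them. Interferon response elements hold the letters GAAANNGAA, searched on both strands in RefSeq windows from 250 bases before to 50 bases after a gene's start (GRCm38.p6, first listed promoter of each gene). Windows existed for 28 of the 39 members, and 16 held the motif (57.1%), against 807 of 11814 measured genes with a window (6.83%). Of the 18 members that rose, 11 had a window and 6 of these held it (54.5%); Irf7, Parp12, Oasl2, Irf9 and Dtx3l rose without a match. The windows below are Ifit1 (chr19:34640639-34640938, plus strand), Ifit3 (chr19:34583279-34583578, plus strand) and Oas1a (chr5:120907476-120907775, minus strand), written 5′ to 3′ with matches in capitals, as the reverse complement where the match lies on the other strand.
Ifit1: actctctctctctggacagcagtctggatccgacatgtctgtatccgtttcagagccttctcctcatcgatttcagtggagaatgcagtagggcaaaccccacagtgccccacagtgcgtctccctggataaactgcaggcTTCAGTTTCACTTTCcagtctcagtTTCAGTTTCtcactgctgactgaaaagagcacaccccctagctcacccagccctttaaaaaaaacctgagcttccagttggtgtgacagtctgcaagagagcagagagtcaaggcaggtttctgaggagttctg
Ifit3: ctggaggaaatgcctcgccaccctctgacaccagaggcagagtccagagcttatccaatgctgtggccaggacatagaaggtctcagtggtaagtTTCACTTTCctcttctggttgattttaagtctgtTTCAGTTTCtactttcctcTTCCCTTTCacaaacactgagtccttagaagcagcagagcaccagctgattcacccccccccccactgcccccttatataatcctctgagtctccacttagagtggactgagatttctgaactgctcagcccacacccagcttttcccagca
Oas1a: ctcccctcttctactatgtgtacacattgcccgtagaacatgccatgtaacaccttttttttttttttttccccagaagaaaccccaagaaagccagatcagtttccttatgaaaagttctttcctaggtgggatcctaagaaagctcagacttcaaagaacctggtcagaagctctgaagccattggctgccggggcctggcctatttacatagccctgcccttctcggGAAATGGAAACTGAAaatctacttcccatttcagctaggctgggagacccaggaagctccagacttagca
In Ifit1 the 3 matches began 109, 103 and 84 bases upstream of the start, and the first 2 overlapped. In Ifit3 they began 155, 121 and 102 bases upstream, and in Oas1a 2 overlapping matches began 20 and 14 bases upstream. A match describes these letters and is not a measured binding site.

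Of the other genes shown by sequence, Ifit3 rose by 1.22 ± 0.30 (adjusted p = 0.0427) and Oas1a by 1.62 ± 0.37 (adjusted p = 0.035), and both have close paralogs, so reads may be shared among copies. The call of Ifit3 ended without R6/2 PLX3397 library 1 (adjusted p = 0.167) or 2 (0.122) or wild-type vehicle library 1 (0.155), 2 (0.158) or 3 (0.0617). That of Oas1a ended without R6/2 PLX3397 library 1 (0.142), 2 (0.0758) or 3 (0.0602) or wild-type vehicle library 1 (0.154) or 3 (0.0697). Isg15 itself stood at 1.89, 1.60 and 2.04 log2 CPM in R6/2 PLX3397, against 0.76, 1.39 and 0.67 in wild-type vehicle, a difference of 0.91 ± 0.29 that did not pass (adjusted p = 0.0998). Antigen presentation genes had 1 of 22 higher, the peptidase Erap1, and 1 lower, H2-DMa, which loads peptides onto MHC class II in microglia and other presenting cells. Of all genes, 0.929% were called higher and 3.63% lower, so these counts say little about the list. H2-DMa fell by 1.12 ± 0.18 (adjusted p = 0.00528). Erap1 rose by 0.62 ± 0.14 (adjusted p = 0.0329), which ended without any 1 of R6/2 PLX3397 libraries 1 (0.14) and 2 (0.104) and wild-type vehicle libraries 1 (0.157), 2 (0.0786) and 3 (0.0646).

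Immediate early genes, which neurons switch on within minutes of activity, were lower in the treated R6/2 striatum. Of 26 measured genes 11 fell, where 3.63% of all genes did. Of the same 26, 23 had all 3 R6/2 PLX3397 libraries below all 3 wild-type vehicle libraries, which 16.0% of all genes did. The list median was -1.25, against -0.46 in R6/2 mice on vehicle, where 2 of the 26 were lower by limma and 0 by limma-voom. Egr2, a zinc finger transcription factor (protein coding; chromosome 10 of GRCm38, 67534469 to 67542188; NCBI gene 13654), had 1, 7 and 10 reads in R6/2 PLX3397, against 213, 225 and 109 in wild-type vehicle. It fell by 4.81 ± 0.61 (adjusted p = 0.00139; 0.0623 without both R6/2 PLX3397 libraries 1 and 2). Arc, which regulates synaptic receptors, stood at 3.84, 5.05 and 5.24 log2 CPM in R6/2 PLX3397 and at 5.43, 6.28 and 6.05 in R6/2 vehicle, against 7.36, 7.22 and 6.61 in wild-type vehicle. Every R6/2 PLX3397 library lay below every R6/2 vehicle library. Arc fell by 2.36 ± 0.41 against wild-type vehicle (adjusted p = 0.00926; 0.0529 and 0.0501 when wild-type vehicle library 1 or 2 was dropped), and its difference between the 2 R6/2 groups, -1.21 ± 0.41, did not pass (adjusted p = 0.293).

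Dusp6, a phosphatase that restrains ERK signalling, was the one immediate early gene called between the R6/2 groups. It stood at 3.79, 4.01 and 4.60 log2 CPM in R6/2 PLX3397 and at 4.98, 5.34 and 5.25 in R6/2 vehicle, against 5.17, 5.11 and 5.05 in wild-type vehicle. It fell by 1.05 ± 0.21 against R6/2 vehicle (adjusted p = 0.0347) and by 0.97 ± 0.21 against wild-type vehicle (adjusted p = 0.0242), while R6/2 mice on vehicle differed from wild-type vehicle by 0.08 ± 0.21 (adjusted p = 0.852). The call against wild-type vehicle ended without R6/2 PLX3397 library 1 (0.102) or 2 (0.086) or wild-type vehicle library 1 (0.108) or 2 (0.0935). Npas4, which neurons use to adjust inhibition, fell by 2.64 ± 0.52 (adjusted p = 0.0169; 0.081 without R6/2 PLX3397 library 1, and 0.0844 and 0.0826 without wild-type vehicle libraries 1 and 2). The list's count was 5 with the cortical covariate, where its median was -1.13, and limma called none without both R6/2 PLX3397 libraries 1 and 2. It was 2 and 4 without R6/2 PLX3397 libraries 1 and 2 taken singly, and 1 without wild-type vehicle library 1 or 2. The median was -0.69 without both R6/2 PLX3397 libraries 1 and 2.

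**Figure D4:**
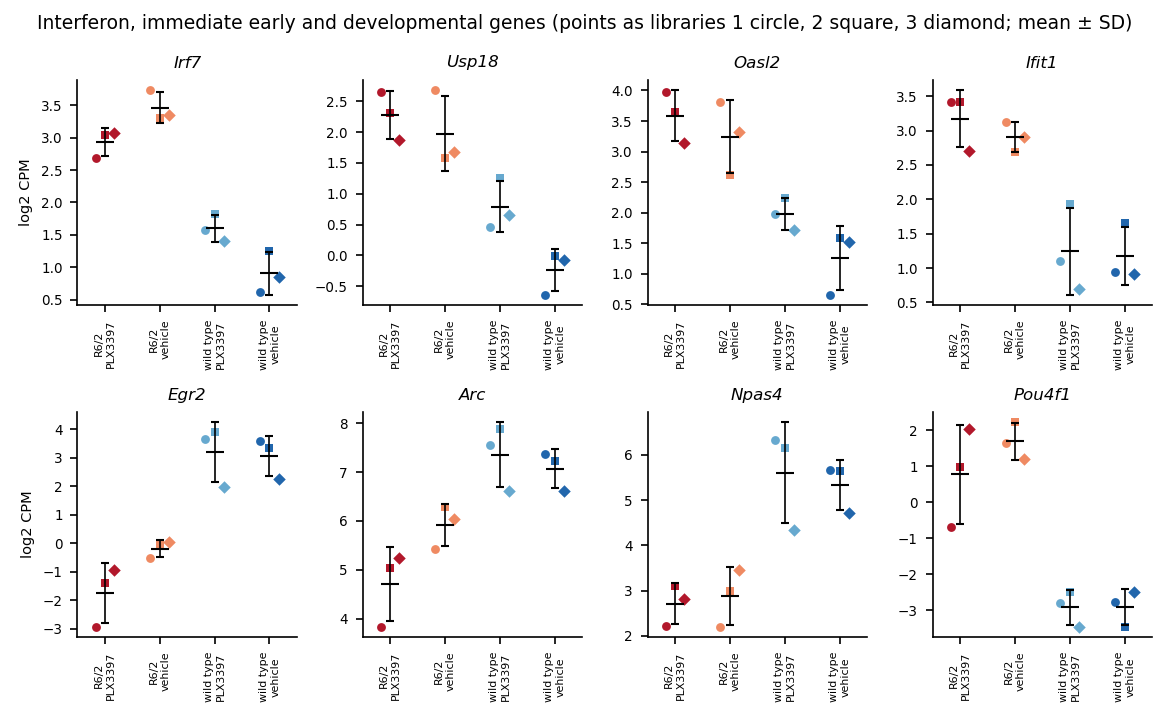
Level in log2 CPM of 4 interferon-stimulated genes (top), 3 immediate early genes and Pou4f1 (bottom) in each library, by group; circles, squares and diamonds are libraries 1, 2 and 3, and bars are the mean ± SD (n = 3). Both R6/2 groups lie above both wild-type groups for Irf7, Usp18, Oasl2, Ifit1 and Pou4f1, and R6/2 PLX3397 lies lowest for Egr2 and Arc.

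Among genes of striatal interneurons, 1 of 22 measured fell in treated R6/2 mice, a share near the 3.63% of all genes called lower, with a median of -0.44. R6/2 mice on vehicle, set against the same wild-type libraries, had 7 of the 22 lower by limma and 0 by limma-voom, with a median of -1.29. Limma-voom called 1 in treated R6/2 mice as well. The single fall was Pthlh, a peptide of fast-spiking interneurons, with 14, 21 and 19 reads in R6/2 PLX3397, against 93, 92 and 65 in wild-type vehicle (-2.26 ± 0.42, adjusted p = 0.0122). Its call ended without R6/2 PLX3397 library 1 (0.0605) or wild-type vehicle library 1 (0.0696) or 2 (0.0606). Somatostatin, Sst, differed by -1.15 ± 0.31 (adjusted p = 0.0643) and neuropeptide Y, Npy, by -1.45 ± 0.41 (adjusted p = 0.0693), and Npy was called without R6/2 PLX3397 library 3 (0.035).

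Within this list the genes of cholinergic neurons differed between the R6/2 groups. The choline transporter Slc5a7 stood at 4.60, 5.27 and 3.00 log2 CPM in R6/2 PLX3397 and at 0.93, 0.94 and 2.62 in R6/2 vehicle, against 5.76, 5.60 and 4.52 in wild-type vehicle. R6/2 PLX3397 and R6/2 vehicle did not overlap, and R6/2 PLX3397 library 3 was the nearest to R6/2 vehicle. Slc5a7 differed from wild-type vehicle by -1.0 ± 0.60 (adjusted p = 0.382) and from R6/2 vehicle by 2.80 ± 0.60 (adjusted p = 0.0615). Lhx8, a transcription factor of developing cholinergic neurons, stood at 4.43, 4.05 and 2.81 in R6/2 PLX3397 and at 0.34, -0.87 and 1.83 in R6/2 vehicle, against 3.79, 3.04 and 4.13 in wild-type vehicle. It was 3.33 ± 0.61 above R6/2 vehicle (adjusted p = 0.0216). Gbx1, another homeobox factor, was 3.48 ± 0.68 above R6/2 vehicle (adjusted p = 0.0326). Limma-voom called neither between the R6/2 groups. Chat, which makes acetylcholine, differed from wild-type vehicle by -0.84 ± 0.60 (adjusted p = 0.478) and from R6/2 vehicle by 2.11 ± 0.60 (adjusted p = 0.205). These genes also mark cholinergic cells of the septum and pallidum, and the mean of 23 genes of thalamus, septum and pallidum was 3.60, 2.89 and 2.33 log2 CPM in R6/2 PLX3397 and 3.07, 1.79 and 2.05 in R6/2 vehicle, against 2.86, 3.81 and 3.46 in wild-type vehicle; its part in the result was not tested.

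**Figure D5:**
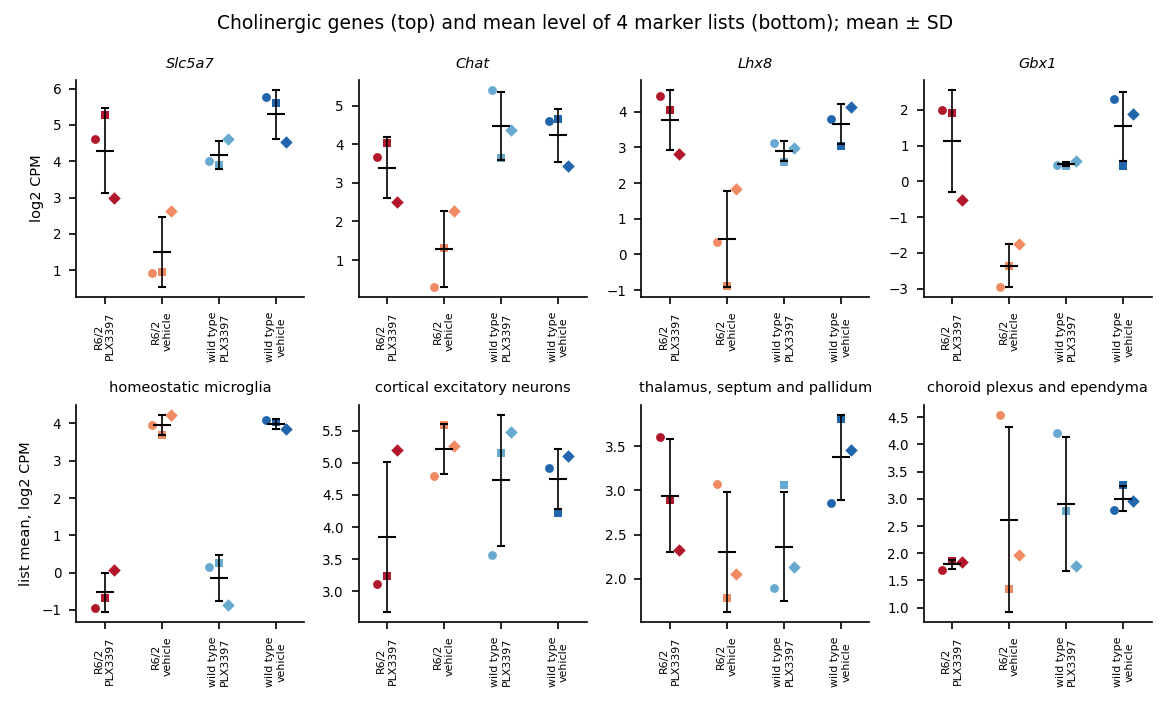
Top row, level in log2 CPM of 4 cholinergic genes in each library; bottom row, mean level in log2 CPM of 4 marker lists; circles, squares and diamonds are libraries 1, 2 and 3, and bars are the mean ± SD (n = 3). The microglial list is low in both PLX3397 groups, the cortical list is low in R6/2 PLX3397 libraries 1 and 2 and wild-type PLX3397 library 1, and the cholinergic genes are lowest in R6/2 vehicle.

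Some genes of myelin, astrocytes and cholesterol synthesis were lower in the treated R6/2 striatum. Of 25 genes of myelin and oligodendrocytes 7 fell, where 3.63% of all genes did, with a median of -0.61. In R6/2 mice on vehicle 2 of the 25 were lower than in wild-type vehicle, with a median of -0.42. The membrane protein Tspan2 stood at 6.85, 6.64 and 7.07 log2 CPM in R6/2 PLX3397, against 8.24, 8.38 and 7.57 in wild-type vehicle (-1.21 ± 0.20, adjusted p = 0.00573). Car2, a carbonic anhydrase of oligodendrocytes, stood at 6.49, 6.68 and 7.63 in R6/2 PLX3397, against 8.64, 8.58 and 8.16 in wild-type vehicle (-1.53 ± 0.25, adjusted p = 0.00613). Both calls held without any 1 library and ended without R6/2 PLX3397 libraries 1 and 2 together (0.266 and 0.188). The major myelin protein Mbp differed by -1.0 ± 0.32 (adjusted p = 0.0966). The myelin count was 2 without R6/2 PLX3397 library 1, R6/2 PLX3397 library 2, wild-type vehicle library 1 or wild-type vehicle library 2, and 3 with the cortical covariate.

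Oligodendrocyte precursor genes showed no called change. Limma called none of 20 (5 at an unadjusted p under 0.05, and none by limma-voom), with a median of -0.37. The growth factor receptor Pdgfra differed by -0.46 ± 0.22 (adjusted p = 0.258). In wild-type mice on PLX3397, 8 of the 20 were lower than in wild-type vehicle, with a median of -0.62. Of 22 astrocyte genes, 3 were lower in R6/2 mice on vehicle than in wild-type vehicle, with a median of -0.41. In treated R6/2 mice 5 of the 22 fell, where 3.63% of all genes did, with a median of -0.47. They were the glutamate transporter Slc1a3 (-0.68), the glutamine synthetase Glul (-0.86), the gap junction protein Gja1 (-0.83), the glycogen regulator Ppp1r3c (-0.72) and the transcription factor Sox9 (-0.86). None of the 5 remained called by limma without R6/2 PLX3397 library 1 or 2 or wild-type vehicle library 1 or 2, and 2 of the list's genes were called without R6/2 PLX3397 library 3 or wild-type vehicle library 3. Gfap, the filament of reactive astrocytes, averaged 6.85 ± 1.06 log2 CPM in R6/2 PLX3397 and 7.71 ± 0.81 in wild-type vehicle (SD, n = 3 each; adjusted p = 0.45). Cholesterol synthesis had 3 of 25 genes lower in R6/2 mice on vehicle than in wild-type vehicle, with a median of -0.31. In treated R6/2 mice 6 of the 25 were lower, where 3.63% of all genes were, with a median of -0.42. Among them Hmgcs1, an early enzyme of the pathway, stood at 7.63, 7.37 and 7.45 log2 CPM in R6/2 PLX3397, against 8.24, 8.07 and 8.11 in wild-type vehicle (-0.66 ± 0.14, adjusted p = 0.0215). Its call ended without R6/2 PLX3397 library 2 (0.0861) or 3 (0.0538) or wild-type vehicle library 1 (0.11) or 2 (0.0716). The cholesterol count was 4, 2 and 1 without R6/2 PLX3397 libraries 1, 2 and 3, 1 without wild-type vehicle library 1 or 2, and 3 without library 3 of that group.

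Of the matrix genes, those of perineuronal nets had 2 calls. The study's title names the extracellular matrix and perineuronal nets, the lattice of proteoglycans around some neurons. Of 34 genes of nets and chondroitin synthesis 2 fell, where 3.63% of all genes did, with a median of -0.33. Hapln1, a link protein that holds proteoglycans on hyaluronan, stood at 2.71, 3.37 and 3.09 log2 CPM in R6/2 PLX3397 and at 2.58, 2.60 and 2.80 in R6/2 vehicle, against 5.18, 4.65 and 3.88 in wild-type vehicle. It fell by 1.52 ± 0.33 (adjusted p = 0.025), which ended without R6/2 PLX3397 library 1 (0.111) or 3 (0.0525) or wild-type vehicle library 1 (0.111) or 2 (0.104). The other was Nptx2, a synaptic pentraxin that is also an immediate early gene (-1.81 ± 0.39, adjusted p = 0.0244), whose call ended without R6/2 PLX3397 library 1 (0.107) or 2 (0.0875) or wild-type vehicle library 1 (0.0784), 2 (0.0844) or 3 (0.0634). Aggrecan, Acan, stood at 2.52, 2.07 and 2.50 log2 CPM in R6/2 PLX3397, against 1.72, 2.50 and 2.30 in wild-type vehicle, which overlapped (0.19 ± 0.26, adjusted p = 0.749). Brevican, Bcan (-0.34 ± 0.16, adjusted p = 0.251), and neurocan, Ncan (-0.77 ± 0.31, adjusted p = 0.187), did not pass. Of 49 other matrix genes limma and limma-voom called none (9 at an unadjusted p under 0.05), with a median of -0.001.

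Channels and synaptic genes had scattered falls, to be read beside the 3.63% of all genes that were called lower. Kcnh4, a potassium channel of striatal neurons, stood at 1.26, 2.69 and 2.35 log2 CPM in R6/2 PLX3397, against 5.43, 5.65 and 4.52 in wild-type vehicle (-3.10 ± 0.51, adjusted p = 0.00613). Kcnip3, a calcium-binding partner of potassium channels, fell by 1.16 ± 0.18 (adjusted p = 0.00385). They were 2 of the 4 potassium channel genes that fell of 48, and both calls held without any 1 library. The list's count was 2 without R6/2 PLX3397 library 1 or wild-type vehicle library 1 or 2, and 7 without R6/2 PLX3397 library 3. Of 35 vesicle and SNARE genes 2 fell, among them complexin Cplx2 (-1.20 ± 0.21, adjusted p = 0.00879; 0.0522 and 0.0509 when wild-type vehicle library 1 or 2 was dropped). Of 34 glutamate receptor and scaffold genes 2 fell, Grin2c (adjusted p = 0.0347) and Dlg4 (adjusted p = 0.0475), and limma called none of them once R6/2 PLX3397 library 1 or 2 or wild-type vehicle library 1 or 2 was dropped. None of 14 GABA-A receptor genes was called by limma or limma-voom (1 at an unadjusted p under 0.05), with a median of 0.08. It was -0.96 in R6/2 mice on vehicle, where limma also called none (6 at an unadjusted p under 0.05). In wild-type mice on PLX3397, 2 of the 14 were lower than in wild-type vehicle, with a median of -1.19.

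A developmental transcription factor and a chaperone were raised. Pou4f1, a transcription factor of developing sensory and habenular neurons (protein coding; chromosome 14 of GRCm38, 104461675 to 104468118; NCBI gene 18996), had 13, 45 and 93 reads in R6/2 PLX3397, against 1, 0 and 2 in wild-type vehicle. With so few wild-type reads its difference of 3.69 ± 0.63 depends on the prior added to the reads; it was called (adjusted p = 0.00833) in all 17 alternatives. Of 62 listed developmental transcription factors 14 were measured, and Pou4f1 was the single one that rose, where 0.929% of all genes did. Genes with so few wild-type reads are kept by an expression filter only through libraries where they are higher. The count is therefore no test of the list. Pax2 had 8, 8 and 55 reads in R6/2 PLX3397, against 0, 1 and 0 in wild-type vehicle (adjusted p = 0.055), and Twist1 had 22, 8 and 82 reads in R6/2 PLX3397, against 1, 2 and 3 in wild-type vehicle (adjusted p = 0.0599; 0.0267 without R6/2 PLX3397 library 2). Neither passed the threshold. Hspa8, the constitutive Hsc70 chaperone, stood at 9.18, 9.01 and 9.88 log2 CPM in R6/2 PLX3397 and at 9.77, 9.29 and 9.06 in R6/2 vehicle, against 7.43, 7.50 and 7.56 in wild-type vehicle. The lowest R6/2 PLX3397 library lay above the highest wild-type vehicle one. Hspa8 rose 3.63-fold (1.86 ± 0.34, adjusted p = 0.0108, and 0.053 and 0.0502 when wild-type vehicle library 1 or 2 was dropped). It was the single called gene of 31 chaperones, where 0.929% of all genes were called higher.

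Some large rises and falls lay outside the lists. Among the 10 largest rises of called, annotated genes at 1 CPM or more in the higher group without overlap was Xlr3b. It belongs to an X-linked gene family with several near-identical copies and had 143, 140 and 215 reads in R6/2 PLX3397, against 17, 14 and 20 in wild-type vehicle (2.95 ± 0.45, adjusted p = 0.00368). It stood at 2.55, 2.61 and 2.44 log2 CPM in wild-type PLX3397 as well, against 0.04, -0.47 and -0.08 in wild-type vehicle, and its reads cannot be told from those of its copies. Ppl, the desmosomal protein periplakin and another of these 10, rose by 2.28 ± 0.42 (adjusted p = 0.0121; 0.0574 without wild-type vehicle library 1). Among falls, chosen after their values were seen, the growth factor Fgf3 had 0, 14 and 0 reads in R6/2 PLX3397, against 57, 112 and 62 in wild-type vehicle (adjusted p = 0.00724), and kept its call in all 17 alternatives. Ptpn7, a tyrosine phosphatase, had 1, 24 and 4 reads in R6/2 PLX3397, against 176, 358 and 87 in wild-type vehicle (-4.65 ± 0.83, adjusted p = 0.0101; 0.0527 and 0.0575 when wild-type vehicle library 1 or 2 was dropped).

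The remaining lists had few calls, to be read beside the same 3.63% of all genes called lower. Sodium and calcium channels had 1 of 24 genes lower, Scn4b, given above. The integrated stress response, by which cells slow translation, had 2 of 23 lower, the pseudokinase Trib3 (-1.69 ± 0.35, adjusted p = 0.02) and the cystine transporter Slc7a11 (-0.85 ± 0.21, adjusted p = 0.0433), and limma called none of the list without R6/2 PLX3397 library 1 or 3 or wild-type vehicle library 1 or 2. Among markers of other regions and cells, 1 of 30 cortical neuron genes fell (Itpka, also on the medium spiny neuron list), as did 1 of 23 genes of thalamus, septum and pallidum (Prkcd, not called by limma-voom or without any 1 of the 6 libraries), 1 of 5 blood cell genes (Ptprc, which microglia also express) and 3 of 15 genes of choroid plexus and ependyma.

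Several housekeeping groups had no called gene. Of 73 cytosolic ribosomal protein genes limma called none (3 at an unadjusted p under 0.05), with a median of -0.21. Of 69 nuclear respiratory chain genes it called none (3 at an unadjusted p under 0.05; median -0.07), and of 35 proteasome genes none (2 at an unadjusted p under 0.05; median 0.08). The 12 mitochondrially encoded genes had a median of -0.55 and also no call (3 at an unadjusted p under 0.05), as had 26 genes of endothelium and pericytes (1 at an unadjusted p under 0.05; median 0.33). Limma-voom on the recovered reads called none in these 5 lists either.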

How the data were processed

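Striatal RNA of 12 samples in 4 groups of 3 was sequenced. The authors used STAR, featureCounts, limma and edgeR with the mm10 build, per the submitters' processing notes, without versions. Though called RPKM, the deposited values are log2 CPM: 100% of them gave whole reads (to within 0.1 read) once a prior of 2 reads on average was taken off. They were used as deposited, although the plan had assumed values still to be logged, and the filter of 1 CPM in at least 3 libraries removed no gene. NCBI gene IDs matched RefSeq (GRCm38) for 15078 of 15397 genes, and GC content and length (GENCODE M21) were known for 14305 (92.9%).

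All 12 libraries entered 1 limma fit of group means (limma 3.58.1, R 4.3.3; intensity trend, two-sided, 8 residual degrees of freedom), tested on simulated data. The members, the 32 gene lists (899 of 986 genes measured), the tests and the genes named were chosen with earlier results of these data known, and lists received no test of their own. The naming rule took, from called genes at 1 CPM or more whose groups did not overlap, the top 10 in each direction by difference; from each list the smallest p-values (up to 4 genes, or 2 where none was called); and a fixed set. The text uses part of these, plus some list members and large falls selected with their values in view. Alternatives were 0.1 or 1 CPM added, the filter, removal of a GC and length trend, a cortical covariate, the 6 libraries alone, limma-voom on recovered reads, median of ratios scaling, no trend, a replicate block and omission of libraries; where a group then held 1 or 2 libraries, the spread was pooled over groups. The labels number 3 samples per group, taken here as 1 mouse each, so p-values rest on the spread between libraries. That spread also holds the differences in cortical genes and GC content given above. Deviations of same-numbered libraries of the 2 compared groups correlated at -0.27 to 0.13, and 3 libraries per group are too few to decide on a pairing. Tables and plots used Python 3.11.15, numpy 2.4.6, pandas 2.3.3 and matplotlib 3.10.9.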

Additional observations from a re-analysis of the deposited data

How the results depend on the processing

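The 702 called genes (143 higher, 559 lower) became 91 (5 higher, 86 lower) without R6/2 PLX3397 libraries 1 and 2, where the lone remaining library is assumed to vary like the other groups. Leaving out 1 library at a time gave 246 to 677 called genes, 21 to 171 higher and 218 to 588 lower. Removal of the GC and length trend gave 303 higher genes, and the cortical covariate gave 70. The 0.1 and 1 CPM additions, the filter, the 6 libraries alone, limma-voom, median of ratios scaling and no trend kept the total between 615 and 753. A like total did not mean the same genes: the 6 libraries alone gave 753 calls, and 510 of the 702 were among them. Of 140 called genes among the 209 the naming rule gave, 32 kept their call in all 17 alternatives, and none of the 209 changed direction in a called value. The median difference of all genes moved by less than 0.1 (log2) in each of the 17.

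With the replicate number as a block, 409 genes were called, 49 higher and 360 lower. Deviations of same-numbered R6/2 PLX3397 and wild-type vehicle libraries from their group means correlated at -0.27, 0.13 and 0.01 for numbers 1, 2 and 3. With 3 libraries per group, these values cannot decide whether the numbers pair the libraries.

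Pax2 and Twist1, with 0 to 3 reads in each wild-type vehicle library, lay near the threshold, and their calls changed with the setting. By limma-voom R6/2 vehicle mice had 40 genes higher and 103 lower than wild-type vehicle mice, and 5 were higher and 154 lower in R6/2 PLX3397 than in R6/2 vehicle.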

Other observations

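Of 15 genes of choroid plexus and ependyma 3 fell, where 3.63% of all genes did, with a median of -1.30, and limma-voom called none. Ccdc153, a gene of motile cilia, had 4, 24 and 50 reads in R6/2 PLX3397, against 193, 489 and 237 in wild-type vehicle (-3.98 ± 0.90, adjusted p = 0.0318). When R6/2 PLX3397 library 1 or 2, or any wild-type vehicle library, was dropped, limma called none of the 15. Top2a and Mki67 were picked after their values were seen and stand for no list. Top2a, a topoisomerase used in cell division, had 14, 26 and 29 reads in R6/2 PLX3397, against 182, 300 and 196 in wild-type vehicle. It fell by 3.38 ± 0.60 (adjusted p = 0.01; 0.0509 without R6/2 PLX3397 library 1 and 0.0559 without wild-type vehicle library 2). Mki67 fell by 2.66 ± 0.67 (adjusted p = 0.049), a call that ended under several alternatives, among them limma-voom (0.0799).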
